A study of Mus musculus with 36 samples.

Results

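The 9 mRNAs described here encode ribosome stalling and rescue factors: Pelo, Hbs1l and Abce1, which take apart stalled ribosomes, Zfp598 and Ascc3, which act on collided ribosomes, Ltn1 and Nemf, which act on the nascent chain, and the GTPases Gtpbp1 and Gtpbp2. Members were found by gene name, and each has a row in the count table, so they make up 9 of 16614 rows and 9 of the 16560 protein-coding rows left after Cdk8 was set aside. The values are counts of ribosome-protected fragments (RPFs) and of RNA-seq reads from these mRNAs. They say how much of each mRNA was found in ribosomes of a fraction, not how much of the protein was present there. All 9 passed the filter on low counts in every comparison.

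A ribosome that stops on an mRNA blocks the ribosomes behind it, and the leading and trailing ribosome then collide. ZNF598, the product of Zfp598, is a ubiquitin ligase that marks collided ribosomes, and the helicase ASCC3 of the ASC-1 complex pulls the marked ribosome apart. Pelota and HBS1L, relatives of the termination factors, enter the empty A site of a stalled ribosome, and the ATPase ABCE1 splits the subunits there and at normal termination. The large subunit still holds the unfinished protein, to which NEMF binds and adds residues, and listerin, the product of Ltn1, is the ubiquitin ligase that marks this protein for degradation. GTPBP1 and GTPBP2 are GTPases related to elongation and rescue factors, and loss of either leads to ribosome pausing and nerve cell loss in mice that also lack a working arginine tRNA of the brain. In neurons, ribosomes that stop during elongation are packed into RNA granules, which sediment to the pellet of a sucrose gradient, and FMRP, whose loss causes fragile X syndrome, binds many of the mRNAs held there.

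The brains came from C57BL/6 mice on postnatal day 5, either WT or FMR1 KO, a line in which the Fmr1 gene is knocked out, and the brains of 10 mice were pooled for a preparation. RPFs were taken from the pellet and from fraction 5/6 of the gradient, where smaller polysomes and ribosome clusters lie, and RNA-seq was made from whole brain homogenate. In the standard preparation the buffer held 10 mM MgCl2 and more nuclease was used, and in the low nuclease preparation it held 2.5 mM, so that 2 genotypes, 3 kinds of library and 2 preparations gave 12 groups of 3 libraries. The text uses the standard preparation except where the low nuclease one is named. Levels are given as scaled CPM, the count of a gene relative to all protein-coding counts of its library without Cdk8, brought to a common total and divided by a TMM factor. Because whole brains were used, fewer cells of a type and less RNA per cell cannot be told apart.

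Without Cdk8, which took 36.7% to 63.4% of the RPF counts, the pellet libraries held 11922190 to 21274803 counts, those of fraction 5/6 held 4284209 to 16618125 and the RNA-seq libraries 112240104 to 147207607. The lowest count of a member in a standard library was 104, for Zfp598 in a WT fraction 5/6 library. The neuronal marker Map2 stood at 1020 to 1398 CPM in the RNA-seq libraries and the liver marker Apoa1 at 0.253 to 0.530. Fmr1, the targeted gene, was at 36.9, 36.8 and 41.4 CPM in the WT RNA-seq libraries and at 9.95, 10.7 and 10.7 in FMR1 KO, and it fell by 3.71 on the log2 scale in the pellet (edgeR quasi-likelihood test, Benjamini-Hochberg adjusted p = 0.00343). The library labelled WT fraction 5/6 replicate 3 did not follow its label. It held 39 Fmr1 counts (3.63 CPM), where the other WT fraction 5/6 libraries were at 112 and 116.5 CPM and the FMR1 KO RPF libraries at 5.33 to 8.45. Across 8120 genes its levels were nearest to those of an FMR1 KO pellet library (r = 0.898, against 0.756 and 0.761 with its own group), and results that rest on it are given with and without it. It was not the only fraction 5/6 library nearest to a pellet library: WT replicate 1 was nearest to a WT pellet library (r = 0.823, against 0.761 and 0.787 with its own group), and so was FMR1 KO replicate 3 (0.870, against 0.839 and 0.840).

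The genes lie on 7 chromosomes of GRCm38. Pelo spans chr13:115088355-115090186 on the minus strand and has 2 exons and 1158 coding bases. Hbs1l spans chr10:21295979-21368898 on the plus strand with 2049 coding bases, Abce1 chr8:79683462-79711740 on the minus strand with 1800, and Zfp598 chr17:24669687-24682016 on the plus strand with 2718. Ascc3 is the longest, at chr10:50592669-50851485 on the plus strand with 42 exons and 6597 coding bases. It is followed by Ltn1 at chr16:87376651-87432612 on the minus strand, with 30 exons and 5304, and by Nemf at chr12:69310522-69357165 on the minus strand, with 33 exons and 3195. Gtpbp1 at chr15:79690845-79721479 and Gtpbp2 at chr17:46161032-46169370, both on the plus strand, have 2007 and 1809 coding bases.

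Some of these counts could hold reads of an overlapping gene. Pelo lies inside Itga1 and Gm49395 on the same strand, and its counts were 91.0% to 98.1% as many as those of Itga1 in the standard RPF libraries and 73.7% to 88.4% in RNA-seq, although the annotation gives them 0 shared exon bases. With Gm49395 it shares 739 exon bases. Which gene these reads came from was not tested, and the values of Pelo are uncertain for this reason. Nemf shares 166 exon bases with Klhdc2 on the opposite strand, and an intron of Gtpbp1 holds the 5S ribosomal RNA gene n-R5s40 at chr15:79692502-79692625 (124 bases).

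Peaks of RPF coverage, deposited by the authors for the 12 standard RPF libraries, show where ribosomes were caught along these mRNAs. The members had 371 separate peak sites when middles within 6 nt were joined, of which 8 were found in at least 4 of the 6 pellet libraries and 0 in all 6. These recurring sites lay in Ltn1, Gtpbp1, Abce1 and Pelo and are printed because they are the places on member mRNAs where pellet RPFs stacked most often. Each window holds 35 bases of the mature mRNA 5′ to 3′, read from the GENCODE M21 transcripts, and the capitals run from the lowest to the highest middle of the matched peaks.
Ltn1 codon 787, chr16:87411833-87412383, minus strand, across exons 12 and 13: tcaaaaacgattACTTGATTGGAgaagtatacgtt
Ltn1 codon 1211, chr16:87400134-87400333, minus strand, across exons 20 and 21: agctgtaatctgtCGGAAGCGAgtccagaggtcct
Ltn1 codon 1759, chr16:87378956-87378990, minus strand, exon 30: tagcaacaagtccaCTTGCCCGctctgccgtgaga
Abce1 codon 567, chr8:79685980-79686014, minus strand, exon 17: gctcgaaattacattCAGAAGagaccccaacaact
Gtpbp1 codon 46, chr15:79691025-79691059, plus strand, exon 1: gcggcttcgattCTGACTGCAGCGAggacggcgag
Gtpbp1 codon 182, chr15:79707738-79707772, plus strand, exon 4: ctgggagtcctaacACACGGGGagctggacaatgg
Gtpbp1 codon 203, chr15:79707800-79707834, plus strand, exon 4: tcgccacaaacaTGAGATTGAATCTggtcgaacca
Pelo codon 222, chr13:115089239-115089273, minus strand, exon 1: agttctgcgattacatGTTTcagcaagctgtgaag

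All of the printed sites are in coding sequence. The Ltn1 site at codon 1759, at 99.5% of the coding sequence, and the one at codon 1211 were called in 4 pellet libraries and 0 fraction 5/6 libraries. At codon 787 a peak was called in 4 pellet libraries and in the library labelled WT fraction 5/6 replicate 3. Within 6 nt the Pelo site was called in 4 pellet libraries only, at 57.4% to 57.6% of the coding sequence. Fraction 5/6 peaks lay close by, from 58.2% in FMR1 KO replicate 1 to 58.6% in WT replicate 2. With middles joined within 12 nt, Pelo had 0 sites in 3 or more pellet libraries without a fraction 5/6 peak. The Abce1 site was called in 4 pellet and 2 fraction 5/6 libraries. For the Gtpbp1 sites at codons 46, 182 and 203 these numbers were 5 and 3, 4 and 1, and 4 and 2. GC content ran from 31.4% in the Ltn1 window at codon 787 to 65.7% in the Gtpbp1 window at codon 46. With middles joined within 12 nt the number of recurring sites was 19, and with only peaks at or above a library's median height it was 2.

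In the RNA of the whole brain, where levels of different genes were compared as CPM per kb of transcript, Abce1, Gtpbp1 and Hbs1l stood highest. In WT they were at 18.1 ± 0.352, 16.9 ± 1.32 and 16.7 ± 1.90 CPM per kb (SD, n = 3), and their libraries overlapped. Gtpbp2 and Nemf followed at 10.7 ± 1.61 and 9.81 ± 0.544, then Zfp598 and Pelo at 7.36 ± 1.468 and 7.18 ± 1.194, each pair overlapping. Ltn1 and Ascc3 were lowest, at 3.78 ± 0.633 and 3.64 ± 0.325, and also overlapped. The order in FMR1 KO RNA was the same apart from Nemf at 11.7 ± 0.365 and Gtpbp2 at 11.3 ± 1.17, which changed places and overlapped.

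The order differed in the pellet, where RPFs were divided by coding length. Abce1 was well above the rest at 97.2 ± 6.64 CPM per kb in WT and 102.7 ± 12.3 in FMR1 KO, and Gtpbp1 came next at 40.4 ± 2.97 and 44.3 ± 2.32. Nemf and Ltn1 came after these, at 30.4 ± 4.46 and 26.6 ± 4.99 in WT, and their libraries overlapped. Pelo, Gtpbp2 and Hbs1l lay between 17.1 and 20.8 in WT, each overlapping its neighbour in the order, and Ascc3 at 14.4 ± 2.77 overlapped Hbs1l. Zfp598 was lowest at 8.92 ± 0.542. In fraction 5/6 of FMR1 KO, Ltn1 at 7.74 ± 1.72 overlapped Zfp598 at 8.06 ± 0.474, and Ascc3 at 4.38 ± 0.332 was lowest.

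**Figure D1:**
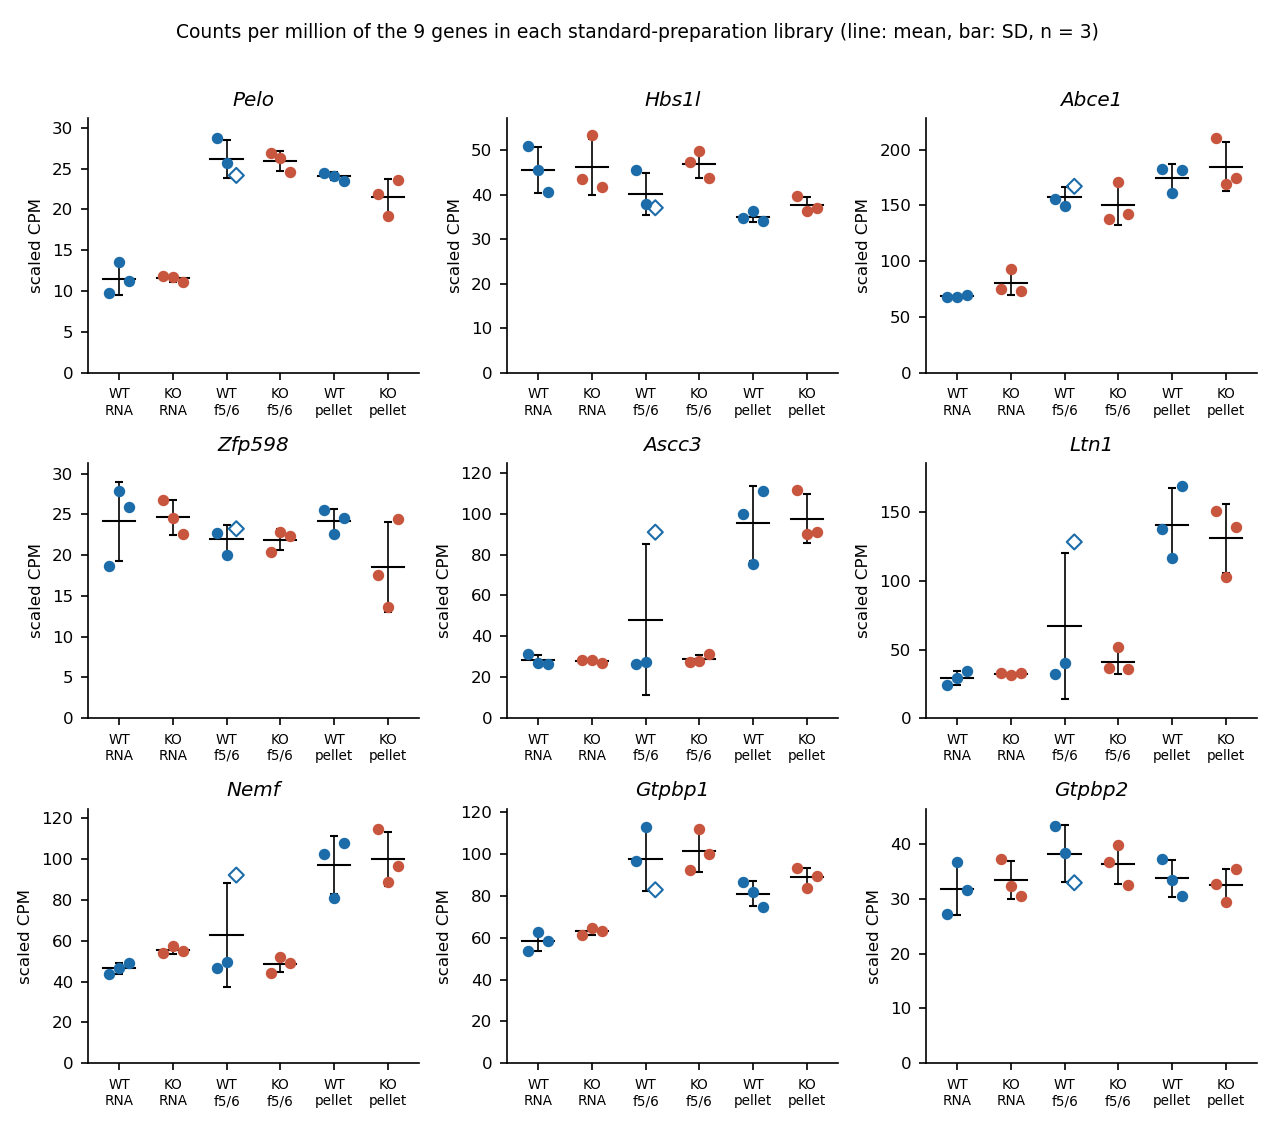
Scaled CPM (linear axis) of the 9 genes in each of the 18 standard libraries, by genotype (WT blue, FMR1 KO red) and kind of library; each point is a library, lines are means, bars are SD (n = 3), and the open diamond is the library labelled WT fraction 5/6 replicate 3. For Ascc3, Ltn1 and Nemf the pellet libraries stand above RNA and above fraction 5/6 except for that diamond, which lies at 90.9, 128.5 and 92.1 CPM.

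Occupancy, the level of pellet RPFs relative to RNA, asks which mRNAs are held in pellet ribosomes beyond what their RNA level gives. With TMM scaling 6 of the 9 members rose and 1 fell in WT, and 6 rose and 0 fell in FMR1 KO. Of all genes tested, 65.8% were called in WT, 28.8% higher and 37.0% lower, and 67.0% in FMR1 KO, 30.5% higher. The members' median log2 change was 1.06 in WT and 0.85 in FMR1 KO, where the median of all genes was -0.20 and -0.11. The same 6 genes rose in both genotypes: Ltn1, Ascc3, Abce1, Pelo, Nemf and Gtpbp1. With library size alone as the scaling, the median of all genes moved to -1.26 and -1.17, and of the members Ltn1 and Ascc3 still rose whereas Hbs1l, Zfp598, Gtpbp1 and Gtpbp2 fell, in both genotypes. Under that scaling 76.4% of all genes were called in WT, 8.74% higher and 67.6% lower, and 69.9% in FMR1 KO, 7.94% higher and 62.0% lower.

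Ltn1, the nascent chain ligase, had the largest rise of the 9. Its RNA was at 24.3, 29.4 and 34.1 CPM in WT and 33.2, 31.8 and 32.6 in FMR1 KO, and its pellet RPFs were at 138, 116.5 and 169 in WT and 151, 103 and 139.6 in FMR1 KO. Every pellet library stood above every RNA library. The log2 occupancy was 2.27 (SE 0.19), a 4.82-fold rise, in WT and 2.01 (SE 0.16), or 4.03-fold, in FMR1 KO (edgeR, adjusted p = 4.06e-05 and 4.12e-05). With library size alone it was 1.193 and 0.988, both still called.

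The other factor of the nascent chain pathway, Nemf, rose less. RNA stood at 43.8, 46.5 and 49.0 CPM in WT and 53.9, 57.3 and 55.1 in FMR1 KO. Pellet RPFs were at 102.4, 80.8 and 108 in WT and 115, 88.8 and 96.3 in FMR1 KO, again with no overlap with RNA. This gave a log2 occupancy of 1.06 (SE 0.14) in WT and 0.85 (SE 0.12) in FMR1 KO (adjusted p = 0.000334 and 0.000588), which turned to -0.0063 and -0.19 with library size alone.

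Among the factors for collided ribosomes, the helicase mRNA Ascc3 rose and the ligase mRNA Zfp598 was not called. Ascc3 RNA was at 31.1, 27.1 and 26.5 CPM in WT and 28.3, 28.2 and 26.9 in FMR1 KO, and pellet RPFs at 99.6, 75.2 and 111 and 111, 90.1 and 91.1. The groups did not overlap, and the log2 occupancy was 1.75 (SE 0.17) in WT and 1.81 (SE 0.11) in FMR1 KO (adjusted p = 7.35e-05 and 1.78e-05), and 0.68 and 0.77 with library size alone. Zfp598 stood at 18.7, 27.9 and 25.9 CPM in RNA and 25.5, 22.6 and 24.6 in pellet RPFs of WT, and at 26.8, 24.5 and 22.5 and 17.6, 13.6 and 24.4 in FMR1 KO. Its groups overlapped in both genotypes. The log2 occupancy was 0.01 (95% interval -0.38 to 0.39) in WT and -0.41 (-0.89 to 0.08) in FMR1 KO, and the adjusted p of 0.12 in FMR1 KO became 0.0108, with a log2 change of -0.65, when FMR1 KO pellet replicate 3 was left out, and without FMR1 KO pellet replicate 2 the change was -0.23 (0.237).

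The mRNAs of the factors that split stalled ribosomes did not move together. Abce1 RNA was at 68.2, 67.6 and 70.2 CPM in WT and 75.5, 93.4 and 73.5 in FMR1 KO, and its pellet RPFs at 182.5, 161 and 181 and 210.2, 169.7 and 175, so that all pellet libraries were higher. Its log2 occupancy was 1.35 (SE 0.11) and 1.194 (SE 0.15) in WT and FMR1 KO (adjusted p = 3.31e-05 and 0.000336), and with library size alone it was 0.29 and 0.15 and not called. For Pelo, RNA was at 9.74, 13.5 and 11.2 CPM and pellet RPFs at 24.5, 24.2 and 23.5 in WT, and 11.9, 11.7 and 11.1 and 21.9, 19.2 and 23.6 in FMR1 KO. Here too no libraries overlapped, and log2 occupancy was 1.07 (SE 0.14) and 0.90 (SE 0.11) (adjusted p = 0.000414 and 0.000339), though with library size alone it was 0.015 in WT and -0.14 in FMR1 KO and was not called in either.

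Hbs1l, the partner of Pelo, lay on the other side. Its RNA was at 50.9, 45.5 and 40.6 CPM and its pellet RPFs at 34.7, 36.4 and 34.2 in WT, and at 43.6, 53.5 and 41.8 and 39.7, 36.3 and 37.1 in FMR1 KO. All pellet libraries were below the RNA libraries of their genotype, by little in FMR1 KO. In WT Hbs1l fell by 0.38 on the log2 scale (SE 0.12, adjusted p = 0.0232), and in FMR1 KO the change was -0.30 (SE 0.12, adjusted p = 0.058). The WT call was lost with DESeq2 (adjusted p = 0.157), with TMM factors from the compared libraries alone (0.0739), with Cdk8 kept (0.0683), and without WT pellet replicate 1 (0.0754), WT RNA replicate 1 (0.0533) or WT RNA replicate 2 (0.0546), and Hbs1l was not called with the low nuclease libraries (0.297). In FMR1 KO it was called with library size alone (0.000312), with all 18 standard libraries in 1 fit (0.0381) and without FMR1 KO RNA replicate 3 (0.047).

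Of the GTPases, Gtpbp1 rose and Gtpbp2 was not called. Gtpbp1 RNA was at 53.7, 62.8 and 58.4 CPM in WT and 61.3, 64.7 and 63.2 in FMR1 KO, and pellet RPFs at 86.7, 81.7 and 74.8 and 93.1, 83.9 and 89.5. The pellet libraries were all higher, with a log2 occupancy of 0.48 (SE 0.11) and 0.49 (SE 0.09) (adjusted p = 0.00753 and 0.00212), which turned to -0.57 and -0.55 with library size alone. Gtpbp2, at 27.2, 36.8 and 31.5 CPM in WT RNA and 37.3, 33.3 and 30.6 in the WT pellet, had overlapping groups and a log2 occupancy of 0.09 (95% interval -0.25 to 0.42) in WT and -0.04 (-0.31 to 0.24) in FMR1 KO.

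**Figure D2:**
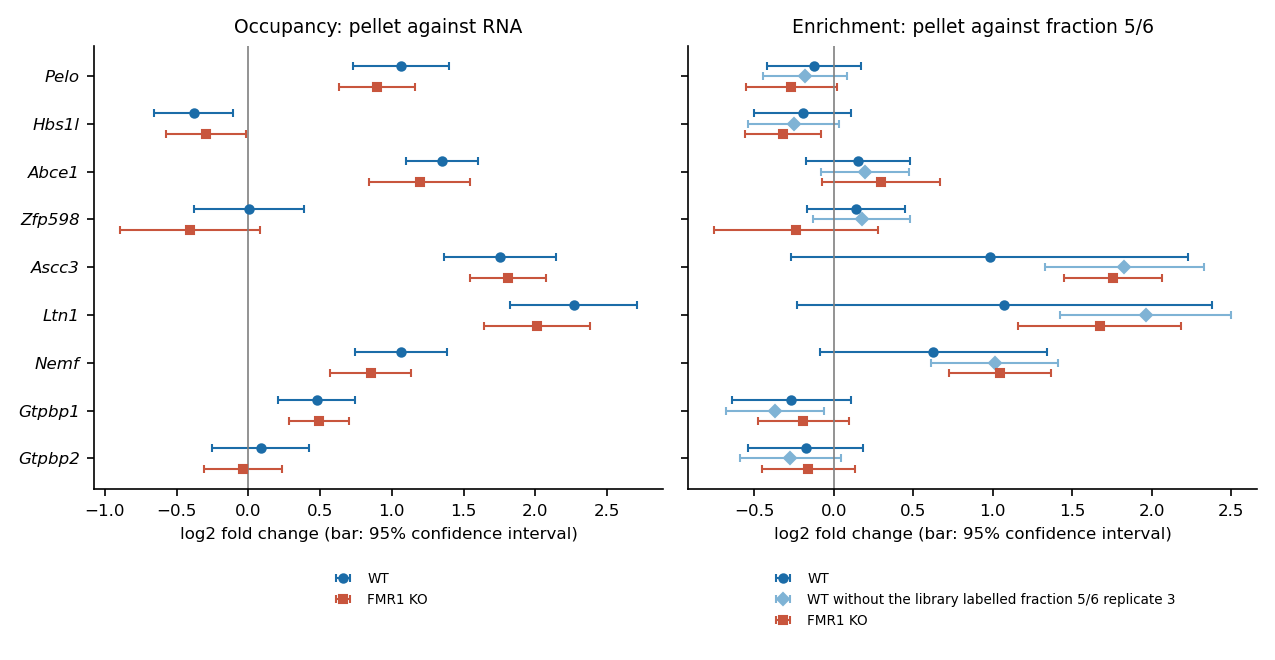
Log2 fold change (x axis) of each gene for pellet against RNA (left) and pellet against fraction 5/6 (right), with 95% confidence intervals from edgeR and TMM scaling, in WT, in FMR1 KO and, on the right, in WT without the library labelled fraction 5/6 replicate 3. Ltn1 and Ascc3 lie farthest to the right in both panels, and with library size alone the occupancy of Gtpbp1 and Nemf in both genotypes, of Pelo in FMR1 KO and of Zfp598 and Gtpbp2 in WT turns below 0.

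Enrichment, pellet RPFs relative to RPFs of fraction 5/6, compares RPFs with RPFs and asks which mRNAs are held in the densest ribosome clusters. In FMR1 KO 3 members rose and 0 fell, where 11.6% of all genes tested were called and 8.06% were higher. These were Ascc3, Ltn1 and Nemf. The median log2 change was -0.16 over the 9 members and -0.08 over all genes. In WT 0 members were called with all 3 fraction 5/6 libraries, where 0.0229% of genes were called and 0.0152% were higher, and 0 members passed an unadjusted p of 0.05 or DESeq2. When the library labelled WT fraction 5/6 replicate 3 was left out, the same 3 members rose in WT, and 9.12% of genes were called.

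Ascc3 RPFs in fraction 5/6 were at 27.4, 27.8 and 31.4 CPM in FMR1 KO and at 26.2, 27.4 and 90.9 in WT. The value of 90.9 belongs to the library labelled replicate 3 and lay among the WT pellet libraries, whereas the other 5 libraries were close to the RNA level with TMM scaling. Scaled by library size alone, the FMR1 KO means were 28.1 in fraction 5/6 and 45.5 in RNA. Log2 enrichment was 1.76 (SE 0.13), or 3.38-fold, in FMR1 KO (adjusted p = 0.00171), and in WT it was 0.98 (SE 0.52, adjusted p = 0.602) with and 1.83 (SE 0.20, adjusted p = 0.0133) without that library.

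Ltn1 gave the same picture. Fraction 5/6 held 36.2, 51.6 and 35.4 CPM in FMR1 KO and 32.4, 40.1 and 128.5 in WT, and again the high WT value came from the library labelled replicate 3. In FMR1 KO the log2 enrichment was 1.67 (SE 0.22), or 3.19-fold (adjusted p = 0.00696), and in WT it was 1.07 (SE 0.54, adjusted p = 0.602) with all libraries and 1.96 (SE 0.21, adjusted p = 0.0134) without that one.

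Nemf stood at 44.4, 51.9 and 49.2 CPM in fraction 5/6 of FMR1 KO and at 46.5, 49.8 and 92.1 in WT. Its FMR1 KO pellet libraries did not overlap these, and log2 enrichment was 1.04 (SE 0.14), or 2.06-fold (adjusted p = 0.00706). In WT it was 0.63 (SE 0.30, adjusted p = 0.602) and 1.01 (SE 0.16, adjusted p = 0.0253) with and without the library labelled replicate 3. With library size alone 0 members were called in FMR1 KO, where 1.29% of all genes were called. Ascc3 was then at 1.47 (adjusted p = 0.054) and Ltn1 at 1.45 (0.0663), and the median of all genes was -0.34.

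The other 6 members were not called in either genotype. Abce1 RPFs in fraction 5/6, at 155.5, 149.9 and 167 CPM in WT and 138, 171 and 142 in FMR1 KO, were already well above its RNA with TMM scaling, though with library size alone the means were 124.6 against 116.2 in WT and 143.2 against 131.7 in FMR1 KO. Its log2 enrichment was 0.15 (95% interval -0.18 to 0.48) in WT, 0.20 (-0.08 to 0.47) without the library labelled WT fraction 5/6 replicate 3, and 0.30 (-0.08 to 0.67) in FMR1 KO. Pelo was at 28.7, 25.7 and 24.2 CPM in WT and 26.9, 26.3 and 24.6 in FMR1 KO, also above its RNA with TMM scaling (20.7 against 19.4 on average in WT with library size alone), with a log2 enrichment of -0.12 (-0.42 to 0.17) in WT, -0.18 (-0.44 to 0.09) without that library, and -0.27 (-0.56 to 0.02) in FMR1 KO. Hbs1l, at 45.5, 38.0 and 37.1 CPM in WT and 47.3, 49.9 and 43.7 in FMR1 KO, was lower in every pellet library than in the fraction 5/6 libraries of its genotype, with a log2 enrichment of -0.20 (-0.50 to 0.11) in WT, -0.25 (-0.54 to 0.03) without that library, and -0.32 (-0.56 to -0.08, adjusted p = 0.0853) in FMR1 KO. Gtpbp1 was at 96.8, 113 and 82.9 CPM in WT and 92.3, 112 and 100.1 in FMR1 KO and Gtpbp2 at 43.3, 38.4 and 32.9 and 36.7, 39.7 and 32.5, and their log2 enrichment with all libraries ran from -0.27 to -0.16. Without that library Gtpbp1 was at -0.37 in WT (-0.68 to -0.06, adjusted p = 0.119) and Gtpbp2 at -0.28 (-0.59 to 0.04). Zfp598, at 22.7, 20.1 and 23.2 and 20.4, 22.9 and 22.4 CPM, was at 0.14 in WT, 0.18 without that library, and -0.24 in FMR1 KO, where it was -0.062 without FMR1 KO pellet replicate 2 and -0.49 without FMR1 KO pellet replicate 3.

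The 3 members that rose in the pellet over fraction 5/6 are also the 3 with the longest coding sequences. Over 13156 genes the log2 enrichment in FMR1 KO had a Spearman correlation of 0.572 with coding length, a description across genes that share these libraries. Genes with over 5 kb of coding sequence had a median of 1.17 and quartiles of 0.59 and 1.72, and those of 3 to 4 kb had a median of 0.45 and quartiles of 0.11 and 0.89. Ltn1 at 1.67 lay inside the quartiles of its length class, Ascc3 at 1.76 just above them and Nemf at 1.04 above them. For occupancy in FMR1 KO the correlation was 0.368 over 15991 genes, and the class over 5 kb had a median of 0.81 and an upper quartile of 1.54, below Ltn1 at 2.01 and Ascc3 at 1.81, whereas Nemf at 0.85 lay inside the quartiles of its class, -0.35 and 1.18. The part of coding length in these results was not tested, and the comparison was added with the members' values known.

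**Figure D3:**
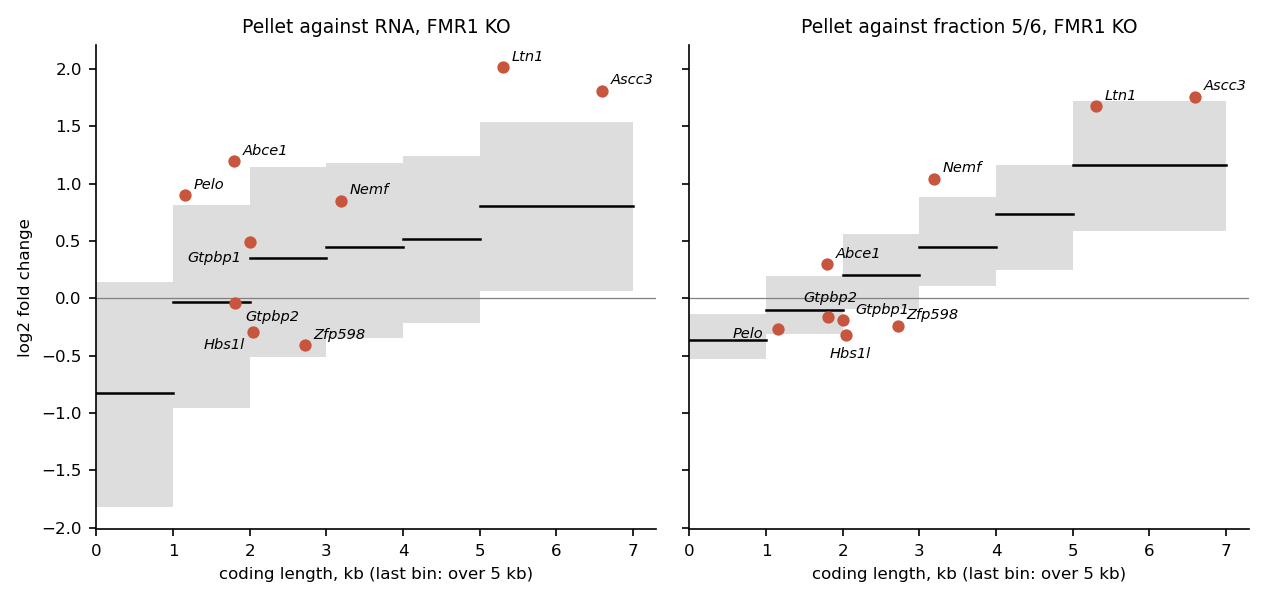
Log2 fold change (y axis, TMM scaling) against coding length in kb (x axis) in FMR1 KO, for pellet against RNA (left) and pellet against fraction 5/6 (right). Points are the 9 genes, black lines the medians and grey boxes the quartiles of all genes tested in each length class; on the right the medians go from -0.37 under 1 kb to 1.17 over 5 kb, and with library size alone the occupancy points of Gtpbp1, Nemf and Pelo on the left turn below 0.

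On Ltn1 and Ascc3 more peaks of coverage were called in each pellet library than in each fraction 5/6 library other than the one labelled WT replicate 3. On Ltn1 26, 27 and 30 peaks were called in the WT pellet libraries and 47, 10 and 28 in FMR1 KO. In fraction 5/6 there were 3, 0 and 29 in WT, the 29 in the library labelled replicate 3, and 0, 2 and 0 in FMR1 KO. Ascc3 had 32, 3 and 10 peaks in the WT pellet and 21, 1 and 9 in FMR1 KO, and in fraction 5/6 it had 6 in the library labelled WT replicate 3 and 0 in the other 5. Nemf had 2 to 15 peaks in the pellet libraries and 0 to 4 in fraction 5/6. These counts were not scaled for depth, and a library had 18652 to 36435 peaks in all in the pellet and 11389 to 30153 in fraction 5/6. The number of peaks varied much between libraries of 1 group, and no test was made.

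On Ltn1, Ascc3 and Nemf few of the called peaks lay near the start of the coding sequence. The counts pool libraries, so a site can be counted once per library, and other long mRNAs were not compared. Of the Ascc3 peaks 32 and 21 came from pellet replicate 1 of WT and FMR1 KO, and of the Nemf peaks 15 from WT pellet replicate 1. Of the 202 peaks on Ltn1, 6, 38, 82 and 76 lay in 4 successive stretches of equal length from the start codon. On Ascc3 2, 31, 31 and 18 of 82 lay in these stretches, and on Nemf 1, 4, 20 and 18 of 43. When WT fraction 5/6 replicate 3 was left out, the numbers were 5, 33, 68 and 67 on Ltn1, 2, 29, 29 and 16 on Ascc3 and 1, 4, 18 and 16 on Nemf. Abce1 was different, with 35, 18, 21 and 44 of 118 peaks, found in all 12 libraries. Gtpbp1 had 107 peaks, 1 of them in the 5′ UTR, and its coding peaks were not sparse near the start, at 24, 36, 31 and 15. Pelo had 42, with 7, 14, 20 and 1 in the 4 stretches. Hbs1l had 6 peaks over all libraries, Zfp598 1 and Gtpbp2 0. With WT fraction 5/6 replicate 3 left out the numbers were 32, 18, 21 and 39 on Abce1 and 6, 13, 18 and 1 on Pelo. On Gtpbp1 98 coding peaks were then left, at 22, 34, 28 and 14.

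**Figure D4:**
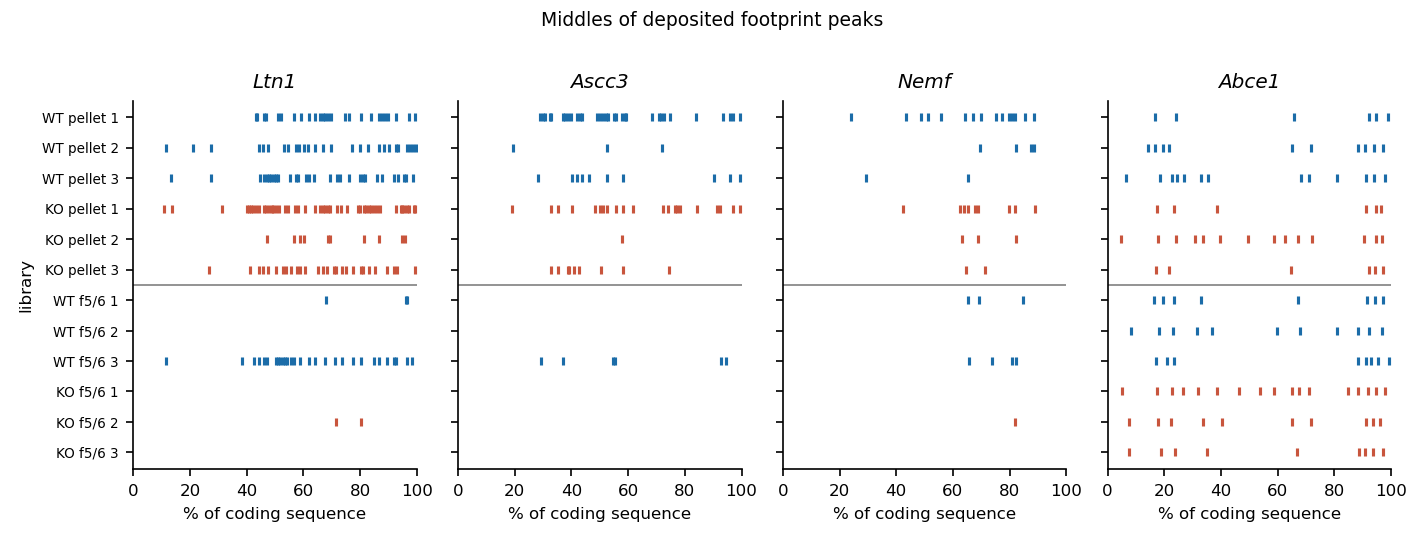
Middles of the deposited RPF peaks (ticks) along the coding sequence (x axis, percent) of 4 genes in the 12 standard RPF libraries (rows, WT blue, FMR1 KO red; the grey line parts the pellet from fraction 5/6). On Ltn1, Ascc3 and Nemf the ticks are mostly in the pellet rows and in the row WT f5/6 3, and on Abce1 they are in all rows.

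The loss of FMRP was tested at each level, and 0 of the 9 members were called in RNA, pellet abundance, occupancy or enrichment. Of all genes, 0.0797% were called in RNA, 0.0152% in abundance, 0.0670% in occupancy and 0% in enrichment (edgeR). DESeq2 also called 0 members in each of these comparisons. At an unadjusted p of 0.05 there were 415, 682, 997 and 761 genes, and of the members only Nemf in RNA. In the RNA-seq libraries every FMR1 KO value of Nemf was above every WT value, a log2 difference of 0.26 (95% interval 0.05 to 0.46, adjusted p = 0.996), and Abce1 RNA, which did not overlap either, differed by 0.23 (-0.02 to 0.49). Of all genes tested, 8.81% had RNA libraries that did not overlap between the genotypes.

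In pellet abundance, FMR1 KO against WT, the largest difference was that of Zfp598, at -0.38 on the log2 scale (95% interval -0.90 to 0.13, adjusted p = 0.923), with FMR1 KO replicate 3 at the WT level and the other FMR1 KO libraries below it. It was -0.21 without FMR1 KO replicate 2 and -0.63 without FMR1 KO replicate 3. The remaining members lay between -0.16 for Pelo (-0.42 to 0.10) and 0.13 for Gtpbp1 (-0.11 to 0.38). Ltn1 was at -0.11 (-0.59 to 0.38) and Ascc3 at 0.03 (-0.38 to 0.45), so for these genes differences between the genotypes within these bounds are not excluded. The bounds are not a limit of detection. The interaction in occupancy was -0.26 for Ltn1 (-0.81 to 0.29) and -0.41 for Zfp598 (-1.03 to 0.20). Leaving out a library moved it from -0.38 (WT RNA replicate 3) to -0.11 (WT pellet replicate 3) for Ltn1 and from -0.66 (FMR1 KO pellet replicate 3) to -0.24 (FMR1 KO pellet replicate 2) for Zfp598, and the low nuclease libraries gave 0.42 and 0.56. In enrichment it was 0.60 for Ltn1 (-0.79 to 1.99), 0.78 for Ascc3 (-0.50 to 2.05) and 0.42 for Nemf (-0.34 to 1.18), and leaving out the library labelled WT fraction 5/6 replicate 3 gave -0.29, -0.07 and 0.03.

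The low nuclease preparation gave another set of libraries for the same comparisons, in which other amounts of nuclease and MgCl2 were used. By the paper's methods the RNase I product, the temperature of digestion and the recovery of monosomes also differed. Occupancy there rests on uneven RNA-seq libraries, since those of WT replicate 2 and FMR1 KO replicates 2 and 3 held 81.5% to 85.0% of their counts in 10 genes, and their part in the results was not tested. In enrichment Ascc3, Ltn1 and Nemf rose in both genotypes, where 22.6% of genes were called in WT and 15.8% in FMR1 KO. Ltn1 pellet RPFs were at 106, 112 and 106 CPM in WT and 126, 96.01 and 101.7 in FMR1 KO, and fraction 5/6 was at 16.7, 34.6 and 17.02 and 29.0, 22.9 and 28.9. No WT fraction 5/6 library of this preparation came near the pellet, and the log2 enrichment was 2.24 (SE 0.31) in WT and 2.00 (SE 0.16) in FMR1 KO (adjusted p = 0.0109 and 0.00614). Ascc3 rose by 1.36 (SE 0.18) and 1.54 (SE 0.18) and Nemf by 0.63 (SE 0.16) and 1.03 (SE 0.14), with adjusted p of 0.0105 and 0.0108 for Ascc3 and 0.038 and 0.0136 for Nemf. Hbs1l fell by 0.44 in WT (SE 0.08, adjusted p = 0.0208) and was at -0.11 in FMR1 KO (adjusted p = 0.462).

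Occupancy in the low nuclease preparation again rose for Ltn1, Ascc3, Abce1 and Gtpbp1 in both genotypes, where 52.0% of genes were called in WT and 29.0% in FMR1 KO. Ltn1 was at 1.90 (SE 0.20) and 2.32 (SE 0.35), Ascc3 at 1.96 (SE 0.23) and 1.60 (SE 0.25) and Abce1 at 2.13 (SE 0.37) and 1.58 (SE 0.31) on the log2 scale. Zfp598 fell by 0.59 (SE 0.21) and Gtpbp2 by 0.64 (SE 0.16) in WT, and both were not called in FMR1 KO. Pelo and Nemf were not called in either genotype, at 0.64 and 0.85 in WT.

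Gtpbp1 was the member that differed most between the preparations. Its low nuclease RPFs were at 68.3, 365 and 221 CPM in WT pellets, 313, 289.7 and 370.0 in those of FMR1 KO, 84.4, 361 and 451 in WT fraction 5/6 and 141, 424.5 and 281 in FMR1 KO fraction 5/6. In 9 of these 12 libraries the value was 221 CPM or more, against 74.8 to 113 in the standard RPF libraries, while RNA was at 50.6, 50.7 and 46.1 in WT and 52.8, 33.6 and 32.3 in FMR1 KO. The log2 occupancy was 2.15 (SE 0.53) in WT and 3.03 (SE 0.32) in FMR1 KO (adjusted p = 0.012 and 0.00245). Libraries of 1 group lay as far apart as WT fraction 5/6 replicates 1 and 3, at 84.4 and 451 CPM. The part of the 5S ribosomal RNA gene in the Gtpbp1 intron was not tested.

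**Figure D5:**
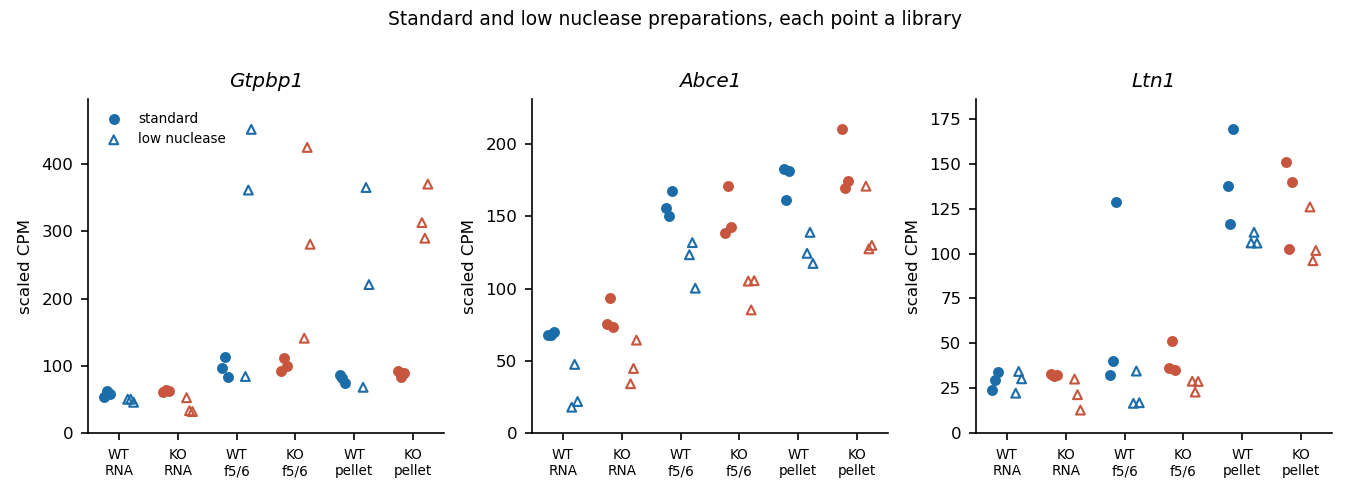
Scaled CPM (linear axis) of Gtpbp1, Abce1 and Ltn1 in the standard (filled circles) and low nuclease (open triangles) libraries, WT in blue and FMR1 KO in red, each point a library. Gtpbp1 reaches 451 CPM in the low nuclease RPF libraries, and for Ltn1 the single standard fraction 5/6 point at 128.5 CPM has no counterpart among the low nuclease libraries.

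The pattern of each member across the 18 standard libraries was set beside that of 8714 genes with a mean of at least 10 CPM. Ltn1 was most like Usp9x, Gapvd1 and Ubr3 (Pearson r of log2 CPM 0.996, 0.995 and 0.994), Ascc3 like Ubr1 and Ubr2 (0.993 and 0.988) and Nemf like Cnot1, Vps13a and Ubr1 (0.987, 0.985 and 0.983). Abce1 was most like Ddx10, Cdc23 and Ggnbp2 (0.993, 0.991 and 0.990), Gtpbp1 like Ctcf, Coil and Rbmx (0.981, 0.980 and 0.975) and Hbs1l like Snx27, Rabep1 and Tex9 (0.925, 0.917 and 0.915). The genes nearest to Pelo were Gm49395 and Itga1 (0.999 and 0.995), in which it lies, and then Hgs (0.990). Zfp598 and Gtpbp2 had no close match, the highest being Zswim1 (0.861) and Clk3 (0.816). With WT fraction 5/6 replicate 3 left out these were 0.875 and 0.848, and the closest match of the other 7 members ran from 0.922 to 0.999. Among the members, over the 12 standard RPF libraries, Ascc3 went with Nemf (r = 0.991) and Ltn1 with both (0.977 with Ascc3 and 0.984 with Nemf), while Hbs1l and Ascc3 went opposite ways (-0.815). When WT fraction 5/6 replicate 3 was left out, these 4 values were 0.991, 0.976, 0.984 and -0.809. The correlations describe libraries that share groups and were not tested.

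Besides the members, 45 other genes of stalling, rescue, recycling and quality control were followed. In occupancy 24 rose and 11 fell in WT and 21 rose and 11 fell in FMR1 KO, with list medians of 0.40 and 0.35 on the log2 scale, where 28.8% of all genes were higher and 37.0% lower in WT and 67.0% were called in FMR1 KO, 30.5% higher. With library size alone the counts turned to 9 up and 27 down in WT and 4 up and 23 down in FMR1 KO, where 8.74% of all genes were higher and 67.6% lower in WT and 7.94% and 62.0% in FMR1 KO. In enrichment 0 were called in WT and 8 rose and 2 fell in FMR1 KO, where 11.6% of all genes were called, with list medians of -0.16 and -0.24, and with the library labelled WT fraction 5/6 replicate 3 left out there were 5 rises and 2 falls in WT, where 9.12% of all genes were called. The FMR1 KO counts turned to 4 and 0 with the replicate block and to 2 and 0 with library size alone, where 3.93% and 1.29% of all genes were called. When a library was left out 3 to 8 rose and 0 to 3 fell: 4 and 0 without fraction 5/6 replicate 1, 3 and 1 without fraction 5/6 replicate 3 or pellet replicate 1, and 3 and 0 without pellet replicate 3. Between the genotypes 0 of the 45 were called in RNA, abundance, occupancy or enrichment, by edgeR.

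One group, singled out after its values were seen, was that for decay of the stalled mRNA, with Skiv2l, Ttc37 and Wdr61 of the Ski complex, which feeds mRNA to the exosome, the exonuclease Xrn1 and the endonuclease N4bp2. All 5 rose in occupancy in both genotypes with TMM scaling, from 0.58 for N4bp2 to 1.70 for Xrn1 in WT, where 28.8% of all genes were higher in WT and 30.5% in FMR1 KO. By library size alone 2 rose and 1 fell in WT and 0 were called in FMR1 KO, where 76.4% and 69.9% of all genes were called. In enrichment in FMR1 KO, where 8.06% of all genes were higher, 4 of the 5 rose, with N4bp2 at 2.12 (SE 0.26), Xrn1 at 1.52 (SE 0.15), Ttc37 at 1.24 (SE 0.21) and Skiv2l at 1.23 (SE 0.19), and Wdr61 was at -0.29. In WT enrichment with all libraries kept, 0 of the 5 were called, where 0.0229% of all genes were called. When the library labelled WT fraction 5/6 replicate 3 was left out, the 4 genes that rose in FMR1 KO were called in WT too, from 1.04 for Skiv2l to 1.92 for N4bp2. With library size alone only N4bp2 of the group remained called in FMR1 KO enrichment, where 1.29% of all genes were called. Over all genes FMR1 KO enrichment rose with coding length (Spearman correlation 0.572), and the part of coding length in the group's values was not tested.

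The sensors of collisions were mixed, with 4 of 8 up and 3 down in WT occupancy, 5 and 3 in FMR1 KO, and 3 up and 1 down in FMR1 KO enrichment. Over all genes 28.8% were higher and 37.0% lower in WT occupancy, 30.5% were higher of 67.0% called in FMR1 KO occupancy, and 8.06% were higher of 11.6% called in FMR1 KO enrichment. Gcn1, which binds collided ribosomes, had the largest enrichment of the list in FMR1 KO, at 2.54 (SE 0.29, adjusted p = 0.00486). In WT it was at 0.97 (SE 0.80, edgeR adjusted p = 0.636) with all libraries and at 2.59 (SE 0.17) without the library labelled fraction 5/6 replicate 3. The part of coding length was not tested for Gcn1 either. Its partner kinase Eif2ak4 rose in occupancy by 2.08 (SE 0.29) in WT and 2.78 (SE 0.40) in FMR1 KO, whereas the cap-binding repressor Eif4e2 fell in FMR1 KO enrichment by 0.44 (SE 0.10). Ascc1 of the ASC-1 complex had the largest occupancy of the list, at 3.96 (SE 0.26) in WT and 4.03 (SE 1.00) in FMR1 KO, and the termination factor Gspt2 rose by 2.63 (SE 0.17) and 2.55 (SE 0.10). The largest falls in occupancy were those of the ubiquitin ligase Rnf10, at -2.87 and -2.80, the deubiquitinase Usp21, at -2.36 and -2.05, and Eif5a2, a form of the elongation factor eIF5A, at -2.17 and -2.70 in WT and FMR1 KO. These 6 genes kept their occupancy calls and directions with library size alone. Of the 8 genes for nascent chain quality control, 2 rose and 1 fell in WT occupancy, 1 rose and 1 fell in FMR1 KO, where 65.8% and 67.0% of all genes were called, and 0 were called in enrichment. Mcts1, a recycling factor, fell in FMR1 KO enrichment by 0.70 (SE 0.12). With the replicate block or library size alone neither Mcts1 nor Eif4e2 was called there (adjusted p = 0.212 and 0.275 with library size alone).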

How the data were processed

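Members, the other pathway genes and the comparisons were chosen with earlier results of these data known. The authors made the deposited counts per gene with featureCounts 2.2.0 from reads that had been trimmed (cutadapt 2.10), cleared of ribosomal and other non-coding RNA (Bowtie2 2.3.5), placed on GRCm38 by STAR 2.7.8a and freed of duplicates (Picard, SAMtools 1.19.2); whether strand was used is not given in the sources used here. The deposited peak files give a whole-number signal for each peak called by the authors in a library, taken here as an unscaled height of RPF coverage. It was 0 at 2 of the members' peaks, which stayed in the counts.

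Here, protein-coding genes without Cdk8 (biotypes and lengths from GENCODE M21) were filtered with filterByExpr, scaled with TMM factors from all 36 libraries and tested with edgeR 4.0.16 in R 4.3.3 (quasi-likelihood test, Benjamini-Hochberg adjustment over all genes tested, threshold 0.05). Log2 CPM used a prior count of 2. The test was also run on simulated counts with the same dispersion for all genes and libraries, which cannot show how it behaves at the spread of these data. Only libraries of the compared groups entered a fit. Alternatives were DESeq2 1.42.0, other scalings, no filter, Cdk8 kept, a replicate block, all 18 standard libraries in 1 fit, the low nuclease libraries and leaving out each library. Libraries of a group are separate pools of brains as far as the labels say, so p-values measure the spread between these preparations. In the paper's protocol the pellet and fraction 5/6 come from the same gradient, so their libraries can share brains. Same-numbered pellet and fraction 5/6 libraries had correlations of deviations from -0.026 (WT replicate 2) to 0.21 (FMR1 KO replicate 3). Over all pairs of groups compared, also between the genotypes, the range was -0.25 to 0.21. Same-numbered libraries were not taken as pairs. Columns of the authors' own comparisons were not used. Genes named are the 9 members, the 3 largest rises and falls past the threshold among the 45 pathway genes and up to 3 genes most like each member, of which 1 is not reported here; the decay group, correlations and peak positions with WT fraction 5/6 replicate 3 left out, the genes Pelo overlaps and the length classes were singled out after values were seen. Peaks were handled with Python 3.11.15 and pandas 2.3.3, and figures drawn with matplotlib 3.10.9.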

Additional observations from a re-analysis of the deposited data

How the results depend on the processing

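Of 1116 values of a member under an alternative, 1003 kept their direction and their side of the threshold, 17 lost a call, 13 gained one and 83 changed sign, 9 of these in a value that was called before or after. With library size alone, log2 occupancy turned to -1.05 for Zfp598, -0.0063 for Nemf, -0.57 for Gtpbp1 and -0.96 for Gtpbp2 in WT, and to -0.14 for Pelo, -0.19 for Nemf and -0.55 for Gtpbp1 in FMR1 KO. The median of all genes under this scaling was -1.26 in WT and -1.17 in FMR1 KO, and which scaling is nearer the true levels was not tested. With the low nuclease libraries, WT occupancy was -0.59 for Zfp598 and -0.64 for Gtpbp2, and the cause was not tested.

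The other sign changes were of values called neither before nor after. Under library size alone, RNA of FMR1 KO against WT was at -0.037 for Pelo, -0.031 for Hbs1l and -0.021 for Zfp598, and the genotype difference in enrichment at -0.15 for Abce1, -0.28 for Gtpbp1 and -0.27 for Gtpbp2. DESeq2 gave 0.073 for Gtpbp2 in FMR1 KO occupancy, -0.012 for Pelo and -0.0040 for Hbs1l between the genotypes in RNA, and -0.019 for Gtpbp1 in occupancy. TMM factors from the compared libraries alone gave 0.0099 for Gtpbp2 in FMR1 KO occupancy and, between the genotypes in RNA, -0.0093 for Pelo and -0.00028 for Hbs1l. With Cdk8 kept, Gtpbp2 was at 0.022 in FMR1 KO occupancy and Gtpbp1 at -0.0048 between the genotypes in occupancy. With the low nuclease libraries, WT enrichment of Zfp598 was -0.14 and FMR1 KO enrichment of Gtpbp1 0.20. Genotype differences there were -0.37 for Pelo, -0.61 for Zfp598, 0.46 for Ascc3, -0.42 for Ltn1, -0.31 for Gtpbp1 and -0.17 for Gtpbp2 in RNA, 0.00034 for Ltn1 and 0.19 for Gtpbp2 in abundance, 0.34 for Pelo, -0.0054 for Hbs1l, 0.56 for Zfp598, -0.35 for Ascc3, 0.42 for Ltn1 and 0.37 for Gtpbp2 in occupancy, and 0.33 for Hbs1l and -0.24 for Ltn1 in enrichment. The cause was not tested.

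When a library was left out, occupancy ran from -0.15 to 0.12 for Zfp598 and -0.015 to 0.20 for Gtpbp2 in WT and from -0.10 to 0.049 for Gtpbp2 in FMR1 KO. Genotype differences ran from -0.10 to 0.14 for Pelo, -0.10 to 0.11 for Hbs1l, -0.13 to 0.14 for Zfp598, -0.066 to 0.054 for Ascc3 and -0.032 to 0.19 for Gtpbp2 in RNA, and in abundance from -0.024 to 0.14 for Abce1, -0.11 to 0.16 for Ascc3, -0.23 to 0.044 for Ltn1, -0.072 to 0.13 for Nemf and -0.12 to 0.026 for Gtpbp2. In occupancy they ran from -0.0025 to 0.20 for Hbs1l, -0.087 to 0.18 for Ascc3 and -0.039 to 0.074 for Gtpbp1, and in enrichment from -0.072 to 1.07 for Ascc3, -0.29 to 0.93 for Ltn1, -0.043 to 0.18 for Gtpbp1 and -0.083 to 0.12 for Gtpbp2.

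In WT enrichment 4 members were called with the low nuclease libraries and 0 to 3 when a library was left out, the 3 without the library labelled WT fraction 5/6 replicate 3, against 0 with all libraries. In FMR1 KO enrichment 0 were called with library size alone, against 3. Leaving out a library gave 6 to 7 members called in each occupancy comparison and 3 in FMR1 KO enrichment. Genes called in WT enrichment numbered 3, and 90 with DESeq2, 8 with library size alone, 6 with all 18 libraries, 3510 with low nuclease and 0 to 1217 with a library left out. In FMR1 KO enrichment there were 1539, and 172, 2458 and 385 to 1335 with library size alone, low nuclease and a library left out. In FMR1 KO occupancy 10838 became 4418 with low nuclease. Between the genotypes DESeq2 called 24 genes in RNA, 66 in abundance, 63 in occupancy and 41 in enrichment, against 13, 2, 11 and 0 with edgeR. The low nuclease libraries gave 0, 3, 3 and 3, all 18 libraries 7, 3, 4 and 0 and the replicate block 10, 0, 7 and 1, and library size alone gave 17 in abundance. A library left out gave 10 to 15 in RNA, 1 to 8 in abundance (8 without FMR1 KO pellet replicate 2), 7 to 29 in occupancy (29 without FMR1 KO pellet replicate 3) and 0 to 3 in enrichment (3 without WT fraction 5/6 replicate 2). Under each of these 0 members were called.

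With the replicate number as a block, 7, 6, 0 and 3 members were called in WT and FMR1 KO occupancy and WT and FMR1 KO enrichment and 0 between the genotypes, the same counts as without it, while the genes called in FMR1 KO enrichment went to 524 and those in WT enrichment to 0. Recurring peak sites numbered 8, and 19 with a window of 12 nt, 2 above the median height and 2 to 8 with a library left out, where fewer pellet libraries remained: 2 without WT pellet replicate 1 or FMR1 KO pellet replicate 3, 3 without FMR1 KO pellet replicate 1 or 2, and 4 without WT pellet replicate 2. Fraction 5/6 of FMR1 KO was the shallowest, and peak counts, which move with depth, were not scaled.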
